A study of Mus musculus with 12 samples.

Results

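The 6 Fc receptor genes described here are Fcgr1, Fcgr3, Fcgr4, Fcer1g, Fcgr2b and Fcgrt. They were taken by gene symbol from a table of 55322 genes, and their RNA levels were followed across 4 groups of mouse splenic type 2 conventional dendritic cells (cDC2). All 6 were found, and 5 passed the filter on low values (at least 1 FPKM in at least 3 libraries). Fcgr1 reached 1 FPKM in 1 library and was not tested. FPKM is the number of reads assigned to a gene per kilobase of its length and scaled to the reads assigned in the library.

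Each of the 4 groups had 3 RNA-seq libraries, and every mouse had received 5 mg/kg of lipopolysaccharide (LPS) into the peritoneum 4 days before its spleen was taken, so no group was without LPS. L-cDC2 were the tdTomato+ cells and M-cDC2 the tdTomato- cells of Il7r-Cre;Rosa26-lsl-tdTomato mice, in which Cre made from the interleukin-7 receptor gene marks a cell and its descendants. CLP-cDC2 and CDP-cDC2 were CD45.2+ cells that grew from wild-type common lymphoid progenitors (CLPs) or common dendritic progenitors (CDPs) after these were injected into the marrow of CD45.1+ recipients of the B6.SJL strain. Mice were C57BL/6J and 7 to 8 weeks of age under specific-pathogen-free conditions, as far as the labels give it. The reporter records past Il7r activity and not a progenitor, and the labels do not say whether the recipients were conditioned before transfer. Nothing in the labels ties replicates to different animals, and the p-values below cover the spread among these libraries alone, which may be technical.

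Fc receptors bind the constant tail of antibodies and link antibody-coated antigen to the cell that takes it up. In the mouse, Fcgr1, Fcgr3 and Fcgr4 encode ligand-binding chains of activating IgG receptors, which signal through the ITAM of the shared gamma chain encoded by Fcer1g, whereas Fcgr2b encodes the single inhibitory IgG receptor, whose ITIM recruits the phosphatase SHIP. Fcgrt encodes the heavy chain of the neonatal Fc receptor (FcRn), which pairs with beta-2 microglobulin inside the cell, returns IgG from endosomes to the surface and routes IgG-bound antigen towards presentation. On dendritic cells, the balance of activating and inhibitory receptors is known to set how readily immune complexes lead to maturation.

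The coding sequences of Fcgr2b and Fcgr3 were compared first, because reads from a stretch that both genes share cannot be placed in one of them. Their coding sequences were equal at 658 of 784 aligned bases (83.9%), against 63.5% for Fcgr2b and Fcgr4 and 63.1% for Fcgr3 and Fcgr4. The longest identical run was 129 bases. It is shown with 45 bases on each side, on the minus strand of chromosome 1 in GRCm38, from GENCODE M21 transcripts; the 219 bases span 2 exons, chr1:170966629-170968126 for Fcgr2b and chr1:171054122-171057837 for Fcgr3, and the 6 bases that differ are in capitals.
Fcgr2b: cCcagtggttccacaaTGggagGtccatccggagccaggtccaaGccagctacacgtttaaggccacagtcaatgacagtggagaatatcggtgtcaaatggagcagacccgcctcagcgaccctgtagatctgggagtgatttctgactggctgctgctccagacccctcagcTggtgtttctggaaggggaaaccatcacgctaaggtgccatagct
Fcgr3: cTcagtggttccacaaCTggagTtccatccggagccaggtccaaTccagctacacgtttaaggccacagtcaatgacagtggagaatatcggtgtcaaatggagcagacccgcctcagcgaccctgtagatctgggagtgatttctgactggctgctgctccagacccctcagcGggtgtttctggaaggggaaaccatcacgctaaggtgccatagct

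Of all 50-base words in Fcgr3 transcripts, 9.58% (166 of 1733) also occurred in Fcgr2b, and these made up 2.92% of the words of the longer Fcgr2b. Fcgr1, Fcgr4, Fcer1g and Fcgrt shared no such word with any other gene. Fcgr2b also shared words with other genes, 146 in all, among them the antisense gene Gm38204 (1.88% of its words) and Cplx2 (1.72%). The deposited values corresponded to whole reads in 12 of 12 libraries for Fcgr4, 6 for Fcgr1, 5 for Fcer1g, 4 for Fcgrt and 0 for Fcgr2b and Fcgr3, so fractional reads also occurred in members that share no word. The split of shared reads between Fcgr2b and Fcgr3 is uncertain from their sequences, and both are also given with their reads pooled, which does not cover words shared with other genes.

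The promoters of 3 receptors for IgG are shown because each held a motif searched for, while their levels differed in pattern as given below. That of Fcgr1 also held motifs and is not shown. Each promoter shown is the 250 bases before a RefSeq start of the gene in GRCm38.p6. A few short motifs of factors known from myeloid cells were searched on both strands, and they were chosen with these promoters in view. The core GAGGAA, bound by PU.1, was in the promoters of 3 of the 6 genes (Fcgr1, Fcgr3 and Fcgr4) and in 23.3% of 32851 mouse promoters of the same length. The Ets-IRF composite element (GGAA and GAAA, 2 bases apart) was in 1 of the 6 (Fcgr2b) and in 2.3% of all promoters. The STAT site TTCNNNGAA was in 1 of the 6 (Fcgr1) and in 7.02% of all promoters. Capitals mark the PU.1 core in Fcgr3 and Fcgr4, where it lies on the reverse strand with its first base 15 and 22 bases before the start, and the Ets-IRF composite in Fcgr2b, also on the reverse strand, 35 bases before the start; the 2 motifs can overlap in GGAA. The windows are chr1:171059395-171059644 (minus strand) for Fcgr3, chr1:171018676-171018925 (plus strand) for Fcgr4 and chr1:170976072-170976321 (minus strand) for Fcgr2b. Counted from another RefSeq start of Fcgr3, the same PU.1 core has its first base 6 bases before the start. A match describes letters, not binding.
Fcgr3: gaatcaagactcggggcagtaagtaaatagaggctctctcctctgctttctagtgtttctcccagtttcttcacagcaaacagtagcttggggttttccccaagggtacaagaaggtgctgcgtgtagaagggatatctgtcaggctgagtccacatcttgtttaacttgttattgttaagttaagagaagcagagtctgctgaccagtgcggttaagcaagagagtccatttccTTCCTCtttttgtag
Fcgr4: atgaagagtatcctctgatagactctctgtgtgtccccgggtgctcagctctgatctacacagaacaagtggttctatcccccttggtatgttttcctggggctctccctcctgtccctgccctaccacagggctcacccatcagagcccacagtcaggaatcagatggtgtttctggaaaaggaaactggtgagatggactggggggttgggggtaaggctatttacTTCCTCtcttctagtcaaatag
Fcgr2b: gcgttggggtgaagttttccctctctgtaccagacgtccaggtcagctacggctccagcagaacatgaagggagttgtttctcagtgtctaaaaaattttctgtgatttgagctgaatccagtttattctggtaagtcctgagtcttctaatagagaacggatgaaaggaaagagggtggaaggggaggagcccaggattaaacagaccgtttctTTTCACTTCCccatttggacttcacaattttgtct

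Libraries held from 26543345 to 73732243 assigned reads, and 12860 to 13892 genes stood at 1 FPKM or more. All 15 listed cDC2 markers passed the filter on low values, with a summed level of 7128 to 12090 FPKM, most of it the class II gene H2-Ab1. In CLP-cDC2, 9 of the 15 were lower than in CDP-cDC2 (limma, median -0.89, 1 higher) and 8 were lower than in L-cDC2 (median -1.02, 1 higher). Over all genes tested, 6.12% were lower in CLP-cDC2 than in CDP-cDC2, and 10.6% differed from L-cDC2 in either direction. Cd209a stood at 10.1 to 16.1 FPKM in CLP-cDC2, against 53.3 to 173.8 in the other groups, and Mgl2 at 0.0492 to 0.419 against 1.07 to 6.95. The part of these markers in the Fc receptor values of CLP-cDC2 was not tested. CDP-cDC2 replicate 3 and M-cDC2 replicate 3 stood apart from their groups on the second and the third principal component. Leaving both out together ended no call of an Fc receptor member for L-cDC2 against M-cDC2 or for CLP-cDC2 against CDP-cDC2. Leaving out M-cDC2 replicate 3 alone left 0 members called for L-cDC2 against M-cDC2. Calls of other genes were not examined in these fits.

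Within these cDC2, the gamma chain was by far the most abundant Fc receptor RNA per length, and CDP-cDC2 carried the highest mean of all 6 genes. Mean levels of Fcer1g ran from 719.5 to 1195 FPKM over the 4 groups, those of Fcgrt from 23.8 to 42.9 and those of Fcgr2b from 6.66 to 16.0. Fcgr4 was the leading activating ligand-binding chain at 3.13 to 13.1 FPKM, ahead of Fcgr3 at 0.972 to 5.72. Fcgr1, the high-affinity receptor, was at 0.361 FPKM or less outside CDP-cDC2. For each of the 6 genes, CDP-cDC2 were highest and M-cDC2 second, and L-cDC2 and CLP-cDC2 shared the bottom of the order.

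**Figure D1:**
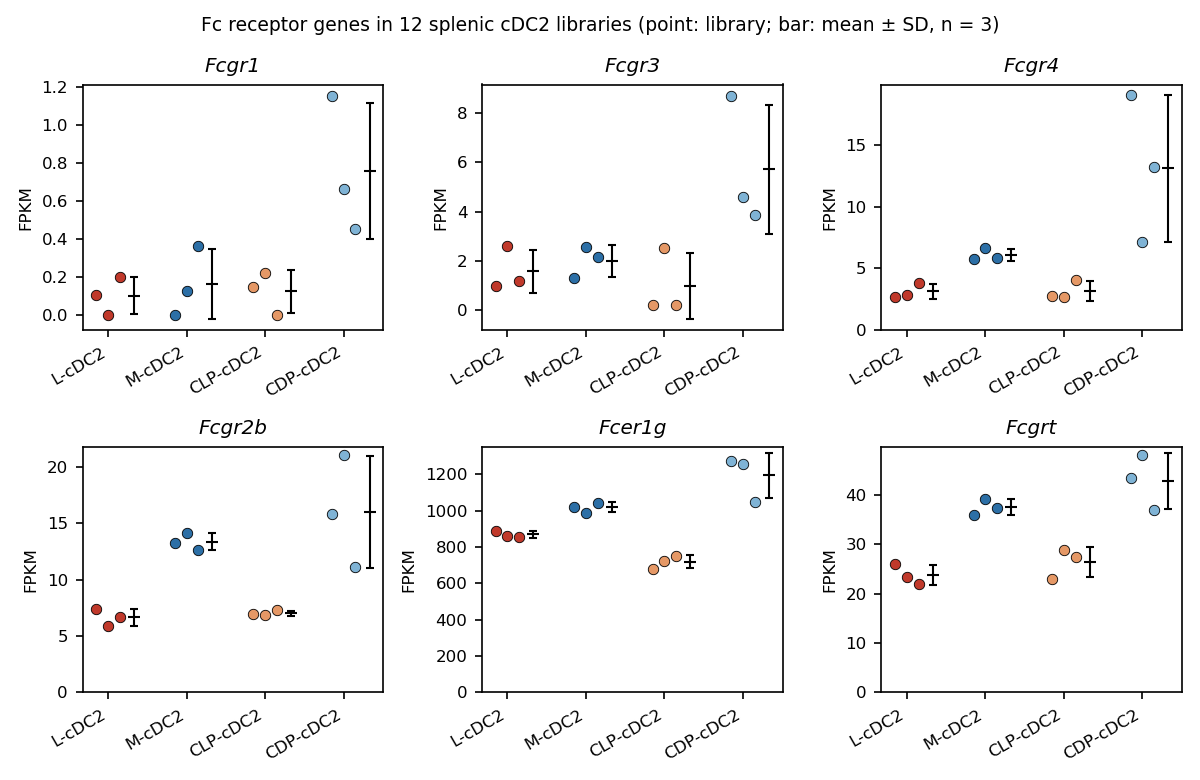
FPKM (vertical axis, linear, a separate scale for each gene) of the 6 Fc receptor genes in the 12 libraries, by group; points are libraries and bars the mean ± SD of 3. In all 6 panels the 3 CDP-cDC2 points lie above the 3 CLP-cDC2 points, and for Fcgr2b and Fcgrt the 3 M-cDC2 points lie above the 3 L-cDC2 points.

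Fcgr4, the activating receptor for IgG2a and IgG2b (ENSMUSG00000059089, chromosome 1 from 170846489 to 170857330 as deposited, plus strand, 1256 bases), separated CDP-cDC2 from the rest. Its levels were 2.71, 2.85 and 3.83 FPKM in L-cDC2 replicates 1 to 3 and 5.72, 6.67 and 5.85 in M-cDC2. They were 2.72, 2.67 and 4.07 FPKM in CLP-cDC2 and 19.0, 7.13 and 13.2 in CDP-cDC2. Every CDP-cDC2 library was above all other libraries, and the lowest of them, replicate 2, was close to the highest M-cDC2 library. CLP-cDC2 were lower than CDP-cDC2 by 1.69 ± 0.27 on the log2(FPKM + 1) scale (SE, limma adjusted p = 0.002), the CDP-cDC2 mean being 4.16 times the CLP-cDC2 mean. L-cDC2 lay below M-cDC2 without overlap, at a difference of -0.79 ± 0.27 that did not pass the test (limma adjusted p = 0.32); it passed in a fit of these 2 groups alone (0.042) and with array weights (0.033).

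Fcgr3, the low-affinity activating receptor also carried by NK cells and macrophages (ENSMUSG00000059498, chromosome 1 from 170878743 to 170892504, minus strand, 1736 bases), was the most uneven member. L-cDC2 replicates 1 to 3 held 0.951, 2.58 and 1.16 FPKM and M-cDC2 1.28, 2.55 and 2.14, so the reporter groups overlapped. CLP-cDC2 held 0.195, 2.53 and 0.193 FPKM and CDP-cDC2 8.72, 4.59 and 3.87. CLP-cDC2 replicates 1 and 3 were the lowest of the 12 libraries, whereas replicate 2 stood level with the reporter groups. That library also stood apart from the rest of its group in the complement genes of macrophages. C1qb was at 49.8 FPKM there, against 0.108 and 0.0217 in CLP-cDC2 replicates 1 and 3, and C1qa at 6.32 against 0.0849 and 0.0906. In CDP-cDC2 replicates 1 to 3, C1qb was at 53.6, 16.4 and 14.9 FPKM and C1qa at 9.68, 5.25 and 7.75. Whether macrophages had a part in the Fcgr3 levels was not tested. CLP-cDC2 were lower than CDP-cDC2 by 1.90 ± 0.41 (SE, limma adjusted p = 0.01), and by 2.43 without CLP-cDC2 replicate 2 (0.002). The call did not hold without the filter on low values (limma adjusted p = 0.066) or in a fit of these 2 groups alone (0.051). L-cDC2 and M-cDC2 differed by -0.25 ± 0.41, with a 95% interval from -1.14 to 0.63 (limma adjusted p = 0.88).

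Fcgr1 (ENSMUSG00000015947, chromosome 3 from 96190225 to 96201285, minus strand, 2589 bases) stood at 0.361 FPKM or less in L-cDC2, M-cDC2 and CLP-cDC2. L-cDC2 libraries had 0.108, 0 and 0.199 FPKM, M-cDC2 0.000857, 0.126 and 0.361, and CLP-cDC2 0.148, 0.222 and 0.00182. A level of 3 reads, the most that a count of 0 allows, was worth 0.0157 to 0.0437 FPKM, and 3 of these 9 libraries lay at or under it. The other libraries of these groups held 10 to 47.42 reads, the most in M-cDC2 replicate 3. CDP-cDC2 had 1.15, 0.661 and 0.454 FPKM (109.2, 96 and 48 reads), each above every other library. With all 44519 genes above 0 fitted, the CLP-cDC2 minus CDP-cDC2 difference of Fcgr1 was -0.63 ± 0.17 and did not pass (limma adjusted p = 0.098).

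Fcer1g, the shared signalling chain (ENSMUSG00000058715, chromosome 1 from 171057141 to 171061934, minus strand, 874 bases), formed tight and separate groups. L-cDC2 held 889.8, 861.5 and 857.3 FPKM and M-cDC2 1021, 989.1 and 1045. CLP-cDC2 held 681.1, 724.5 and 752.9 FPKM and CDP-cDC2 1276, 1259 and 1050. The 4 groups did not overlap one another, in the order CLP-cDC2, L-cDC2, M-cDC2 and CDP-cDC2, with CDP-cDC2 replicate 3 close to the highest M-cDC2 library. CLP-cDC2 were lower than CDP-cDC2 by 0.73 ± 0.10 (SE, limma adjusted p = 0.00082), a mean 39.8% lower, and the call held in all 25 alternatives. The smaller L-cDC2 minus M-cDC2 difference of -0.23 ± 0.10 did not pass (limma adjusted p = 0.55), nor did that of CLP-cDC2 minus L-cDC2 at -0.27 ± 0.10 (0.095), which was under 0.05 in 4 of 24 alternatives, among them the fit without CDP-cDC2 replicate 3 (0.034). In bulk RNA, fewer cells of a type and less RNA per cell cannot be told apart.

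Fcgr2b, the inhibitory receptor (ENSMUSG00000026656, chromosome 1 from 170786186 to 170804116, minus strand, 5790 bases), stood at 2 levels, one in L-cDC2 and CLP-cDC2 and a higher one in M-cDC2 and CDP-cDC2. L-cDC2 held 7.44, 5.89 and 6.65 FPKM and CLP-cDC2 6.93, 6.88 and 7.28. M-cDC2 held 13.3, 14.2 and 12.7 FPKM and CDP-cDC2 15.9, 21.1 and 11.1. All 6 libraries of the first 2 groups lay below all 6 of the others, and CDP-cDC2 were the more spread. L-cDC2 were lower than M-cDC2 by 0.91 ± 0.18 (SE, limma adjusted p = 0.02), a mean of 6.66 ± 0.78 against 13.4 ± 0.74 FPKM (SD, n = 3). CLP-cDC2 were lower than CDP-cDC2 by 1.04 ± 0.18 (limma adjusted p = 0.0035), with 7.03 ± 0.22 against 16.0 ± 4.97 FPKM. With the reads of Fcgr2b and Fcgr3 pooled as 1 gene, the 2 differences were -0.86 and -1.11 (limma adjusted p = 0.023 and 0.0021). The L-cDC2 call was lost without any 1 of 5 libraries: when L-cDC2 replicate 2, L-cDC2 replicate 3, M-cDC2 replicate 1, M-cDC2 replicate 2 or M-cDC2 replicate 3 was left out, the limma adjusted p was 0.11, 0.081, 0.077, 0.11 and 0.06, at differences from -0.84 to -0.95, and it was lost without the filter on low values (0.078). The L-cDC2 call also did not pass with the replicate number as a block. B cells also carry Fcgr2b, as their only IgG receptor. The B cell receptor chain Cd79a stood at 50.9 to 57.8 FPKM in L-cDC2 and 0.139 to 0.594 in M-cDC2. The part of B cells in the Fcgr2b values was not tested.

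Fcgrt, the FcRn heavy chain (ENSMUSG00000003420, chromosome 7 from 44742414 to 44753275, minus strand, 2102 bases), showed the same 2 levels. L-cDC2 held 26.0, 23.3 and 22.0 FPKM and CLP-cDC2 23.0, 28.9 and 27.5. M-cDC2 held 36.0, 39.3 and 37.4 FPKM and CDP-cDC2 43.6, 48.1 and 36.9. The highest of the first 6 libraries, CLP-cDC2 replicate 2, was below the lowest of the others, M-cDC2 replicate 1. L-cDC2 were lower than M-cDC2 by 0.64 ± 0.13 (SE, limma adjusted p = 0.02), a mean 36.7% lower. That call did not pass with the replicate number as a block. CLP-cDC2 were lower than CDP-cDC2 by 0.67 ± 0.13 (limma adjusted p = 0.0057), 38.3% lower, and the adjusted p was 0.05 in a fit of these 2 groups alone. With L-cDC2 replicate 2, L-cDC2 replicate 3, M-cDC2 replicate 1, M-cDC2 replicate 2 or M-cDC2 replicate 3 left out, the limma adjusted p of the first was 0.095, 0.12, 0.064, 0.12 and 0.072. Its partner B2m did not pass in either comparison (differences of 0.08 and -0.28, limma adjusted p = 0.92 and 0.38) and stood at means of 3495 to 4357 FPKM. The cytosolic Fc receptor Trim21 did not pass either (0.12 and 0.10, adjusted p = 0.88 and 0.79).

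Part of Fcgrt is covered on the other strand by the long noncoding gene Gm45669, which was looked at after its values were seen. Its levels were 10.8, 12.2 and 8.33 FPKM in L-cDC2, 6.26, 7.30 and 9.87 in M-cDC2, 9.15, 9.001 and 10.9 in CLP-cDC2 and 3.64, 3.61 and 2.94 in CDP-cDC2. Gm45669 was thus lowest where Fcgrt was highest, and CLP-cDC2 exceeded CDP-cDC2 by 1.28 ± 0.18 (SE, limma adjusted p = 0.00097). The spans of Gm45669 and Fcgrt overlap, but Fcgrt transcripts shared no 50-base word with any other gene on either strand. The library kit does not mark strand, so reads from any sequence that both genes share cannot be told apart by strand.

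Counted together, 2 of the 5 tested members (Fcgr2b and Fcgrt) were lower in L-cDC2 compared with M-cDC2 and none higher, where 0.44% of the 14538 genes tested were lower. In 4 of the 6 genes (Fcgr4, Fcer1g, Fcgr2b and Fcgrt) the 3 L-cDC2 libraries lay below the 3 M-cDC2 libraries, as in 6.67% of the genes tested. All 5 tested members were lower in CLP-cDC2 than in CDP-cDC2, where 6.12% of genes were, and in all 6 genes the CLP-cDC2 libraries lay below the CDP-cDC2 libraries, as in 13% of genes.

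**Figure D2:**
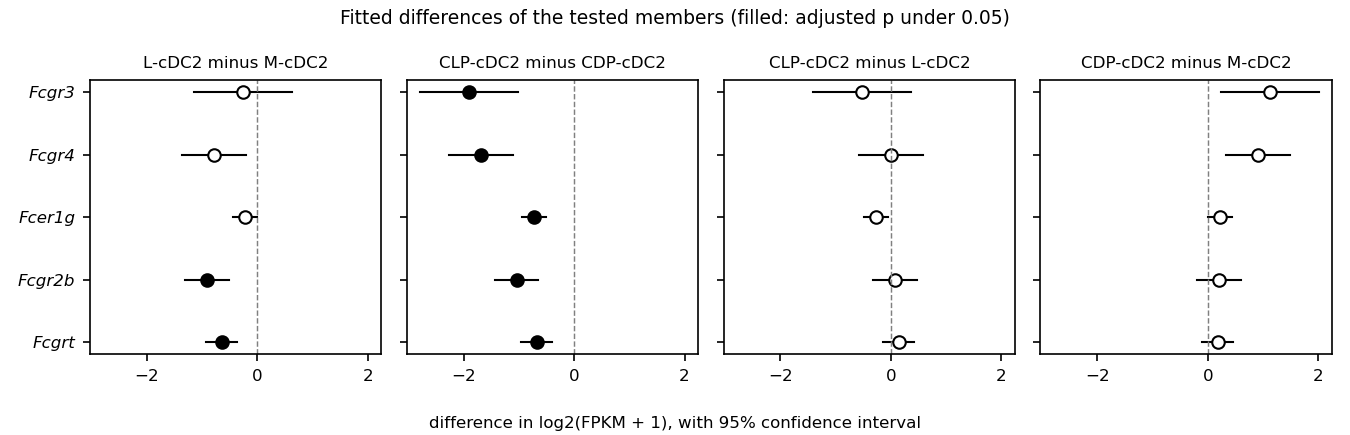
Fitted differences in log2(FPKM + 1) (horizontal axis) of the 5 tested genes, with 95% confidence intervals, in the 4 comparisons of groups; filled points have an adjusted p under 0.05. Filled points stand for Fcgr2b and Fcgrt in L-cDC2 minus M-cDC2 and for all 5 genes in CLP-cDC2 minus CDP-cDC2, each to the left of 0, and the panels against the reporter groups hold open points only.

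Whether the lineage difference depended on the system was tested as the L-cDC2 minus M-cDC2 difference less the CLP-cDC2 minus CDP-cDC2 difference. No member passed, where 5.99% of genes did in either direction; 3 of the 5 tested (Fcgr3, Fcgr4 and Fcer1g) had an unadjusted p under 0.05 with limma, and 1 (Fcer1g) passed with voom on rebuilt reads. For Fcer1g it was 0.50 ± 0.14 (SE, limma adjusted p = 0.053), and it was under 0.05 in 7 of 24 alternatives, with 0.018 without CDP-cDC2 replicate 3. For Fcgr3 it was 1.65 ± 0.58 (limma adjusted p = 0.10), and 2.17 without CLP-cDC2 replicate 2 (0.027). For Fcgr4 it was 0.90 ± 0.38 (limma adjusted p = 0.16), and 1.25 without CDP-cDC2 replicate 2 (0.031). For Fcgr2b and Fcgrt the difference of differences was 0.13 and 0.03, with 95% intervals from -0.43 to 0.69 and from -0.36 to 0.43 (limma adjusted p = 0.80 and 0.93).

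The stated aim of the study was to set CLP-cDC2 beside L-cDC2. With limma, no member passed in CLP-cDC2 minus L-cDC2, where 10.6% of genes did in either direction, and 1 (Fcer1g) had an unadjusted p under 0.05; none passed with voom. Fcer1g was the 1 gene of the 6 whose CLP-cDC2 libraries all lay below the L-cDC2 libraries, as in 17.9% of genes tested. The interval of the difference ran from -0.33 to 0.47 for Fcgr2b, from -0.14 to 0.43 for Fcgrt, from -0.58 to 0.58 for Fcgr4 and from -1.41 to 0.36 for Fcgr3, so changes within those bounds were not detectable. Fcgr3 in CLP-cDC2 replicates 1 and 3 (0.195 and 0.193 FPKM) lay below the lowest L-cDC2 library (0.951), and without CLP-cDC2 replicate 2 the difference was -1.05 (limma adjusted p = 0.081) in place of -0.53. This comparison and the next use the same libraries as the lineage comparisons above.

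CDP-cDC2 were then set beside M-cDC2, and no member passed with limma or with voom (2.58% of genes passed with limma in either direction), while Fcgr3, Fcgr4 and Fcer1g had an unadjusted limma p under 0.05. In 4 of the 6 genes, Fcgr1, Fcgr3, Fcgr4 and Fcer1g, the 3 CDP-cDC2 libraries lay above the 3 M-cDC2 libraries, as in 14.5% of genes tested. The differences were 1.13 ± 0.41 for Fcgr3 (SE, limma adjusted p = 0.15), 0.90 ± 0.27 for Fcgr4 (0.09) and 0.23 ± 0.10 for Fcer1g (0.23). Those of Fcgr2b and Fcgrt were 0.20 ± 0.18 and 0.18 ± 0.13 (limma adjusted p = 0.58 and 0.48). Without CDP-cDC2 replicate 2, the Fcgr4 difference was 1.26 (limma adjusted p = 0.011).

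The balance of activating and inhibitory RNA was described in each library as the log2 of the summed FPKM of Fcgr1, Fcgr3 and Fcgr4 over that of Fcgr2b, with no test. It was -0.98, -0.12 and -0.36 in L-cDC2, -0.92, -0.60 and -0.60 in M-cDC2 and -1.18, -0.34 and -0.77 in CLP-cDC2. In CDP-cDC2 it was 0.87, -0.77 and 0.66. Per length, Fcgr2b exceeded the activating sum in 10 of 12 libraries, and CDP-cDC2 replicates 1 and 3 were the exceptions. The side of 0 depends on the gene lengths used, 5790 bases for Fcgr2b and 1256 to 2589 for the activating genes. Undivided by length, Fcgr2b had 3359.55 and 2630.75 reads in CDP-cDC2 replicates 1 and 3. Fcgr4 had 874 and 678 reads there, Fcgr3 553.5 and 273.75, and Fcgr1 109.19 and 48. CDP-cDC2 replicate 2, with the most Fcgr2b (21.1 FPKM) and the least Fcgr4 of its group, lay among the other groups. The ratios of L-cDC2 and CLP-cDC2 overlapped that of M-cDC2, although Fcgr2b was lower in both.

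**Figure D3:**
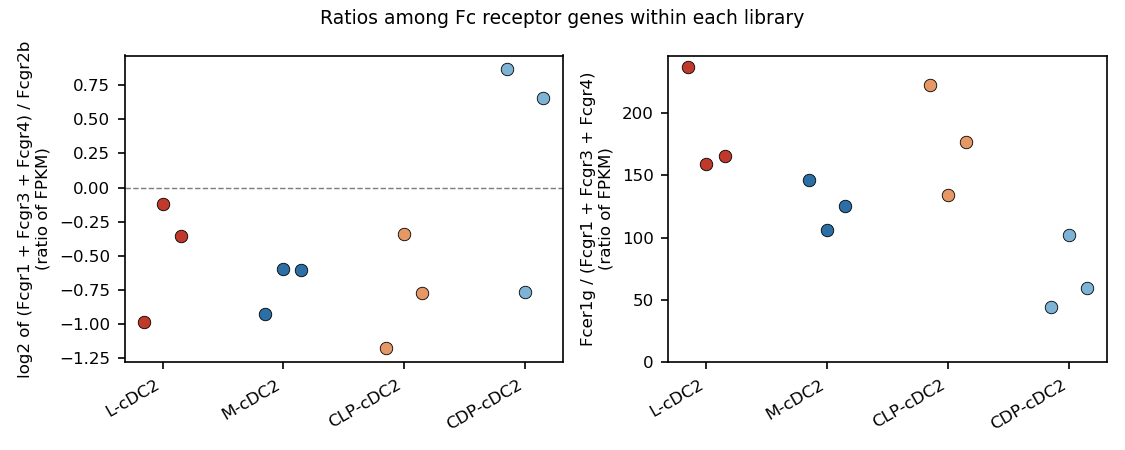
Left, log2 of the summed FPKM of Fcgr1, Fcgr3 and Fcgr4 over the FPKM of Fcgr2b; right, FPKM of Fcer1g over the summed FPKM of these 3 activating chains; points are the 12 libraries by group. On the left only CDP-cDC2 replicates 1 and 3 (0.87 and 0.66) lie above 0, and on the right the 3 CDP-cDC2 libraries lie lowest, between 44.1 and 101.8.

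Fcgr4 made up 49.3 to 95.4% of the activating sum over the 12 libraries, lowest and highest both in CLP-cDC2, where Fcgr3 had its largest relative spread (CV 138.6%). The gamma chain exceeded that sum 159 to 236 times per length in L-cDC2, 106 to 146 times in M-cDC2 and 134 to 222 times in CLP-cDC2, against 44.1 to 101.8 times in CDP-cDC2. The CDP-cDC2 range thus did not overlap the others, although CDP-cDC2 also had the most Fcer1g.

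Other receptors that use the gamma chain were listed beside the members. Of 16 listed, 13 were in the table and 7 were tested. In L-cDC2 against M-cDC2, Ncr1 (3.28) and Klrb1c (1.35), both receptors of NK cells, were higher, and Clec4b1, a C-type lectin of dendritic cells, was lower (-1.03; limma adjusted p = 0.015). In CLP-cDC2 against CDP-cDC2, Cd300ld (-1.83, limma adjusted p = 0.00052) and Clec4n, the fungal sensor Dectin-2 (-1.75, 0.00088), were lower and none was higher. Clec4e, the partner lectin Mincle, stood at means of 0 to 0.103 FPKM and was not tested. Of the 4 partner chains tested, Cd247, the zeta chain of T and NK cells, was higher in L-cDC2 (1.05, limma adjusted p = 0.0015), and Tyrobp, the adaptor DAP12, was lower in CLP-cDC2 than in CDP-cDC2 (-0.37, 0.049).

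Receptors for other antibody classes and Fc receptor-like genes were counted next. Of 8 tested, 3 were higher in L-cDC2 than in M-cDC2 and none lower, against 1.29% of genes higher: Fcmr, the IgM receptor (3.09 ± 0.41, SE, limma adjusted p = 0.00087), Fcer2a, the low-affinity IgE receptor CD23 (1.31 ± 0.18, 0.0011), and Pigr (1.31 ± 0.17, 0.00058). In CLP-cDC2 against CDP-cDC2, Fcer2a was again higher (1.48, limma adjusted p = 0.00045), Fcrla was higher (0.79, 0.027) and Fcrlb lower (-0.69, 0.039). Fcrlb stood at means of 1.64 FPKM in M-cDC2 and 1.34 in CDP-cDC2, against 0.714 in L-cDC2 and 0.407 in CLP-cDC2, but its L-cDC2 minus M-cDC2 difference of -0.63 did not pass (limma adjusted p = 0.24). Fcrl5 did not pass in either comparison (0.99 and -0.81, limma adjusted p = 0.15 and 0.072). Fcer2a and Fcmr are known from B cells, and 8 of 10 tested B cell markers were higher in L-cDC2, with a summed level of 1665 to 2392 FPKM against 464.7 to 495.4 in M-cDC2; in CLP-cDC2 that sum was 485.5 to 1068 and in CDP-cDC2 426.3 to 476.7, and 3 of 10 were higher in CLP-cDC2. The part of these markers in the Fcer2a and Fcmr values was not tested.

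Downstream of the activating receptors, the 2 comparisons did not share their pattern. Of 25 tested signalling genes, 1 was higher and none lower in L-cDC2 compared with M-cDC2 (median difference 0.20, against 0.04 over all genes). In CLP-cDC2 against CDP-cDC2, 9 were lower and 1 higher (median -0.47, against -0.01), where 6.12% and 7.02% of genes were. In the test of the difference between the comparisons, 5 of the 25 passed, all with the L-cDC2 minus M-cDC2 value above the other. Those that fell furthest were Rac1, the GTPase of phagocytic cup formation (-2.10 ± 0.43, SE, limma adjusted p = 0.008), the adaptor Grb2 (-1.58 ± 0.26, 0.0027) and the kinase Fyn (-1.19 ± 0.21, 0.0038). Syk, the kinase that docks on the phosphorylated ITAM, was at 8.98 ± 0.08 FPKM in CLP-cDC2 and 17.0 ± 4.63 in CDP-cDC2 (SD, n = 3; difference -0.82 ± 0.18, limma adjusted p = 0.011). The Src-family kinase Lyn, which starts the signal, did not pass (-0.26, limma adjusted p = 0.099), nor did the adaptor Card9 (-0.40, 0.14). Blnk, an adaptor best known from B cells, was the gene higher in both comparisons (1.30 and 1.04, limma adjusted p = 0.00029 and 0.0013).

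**Figure D4:**
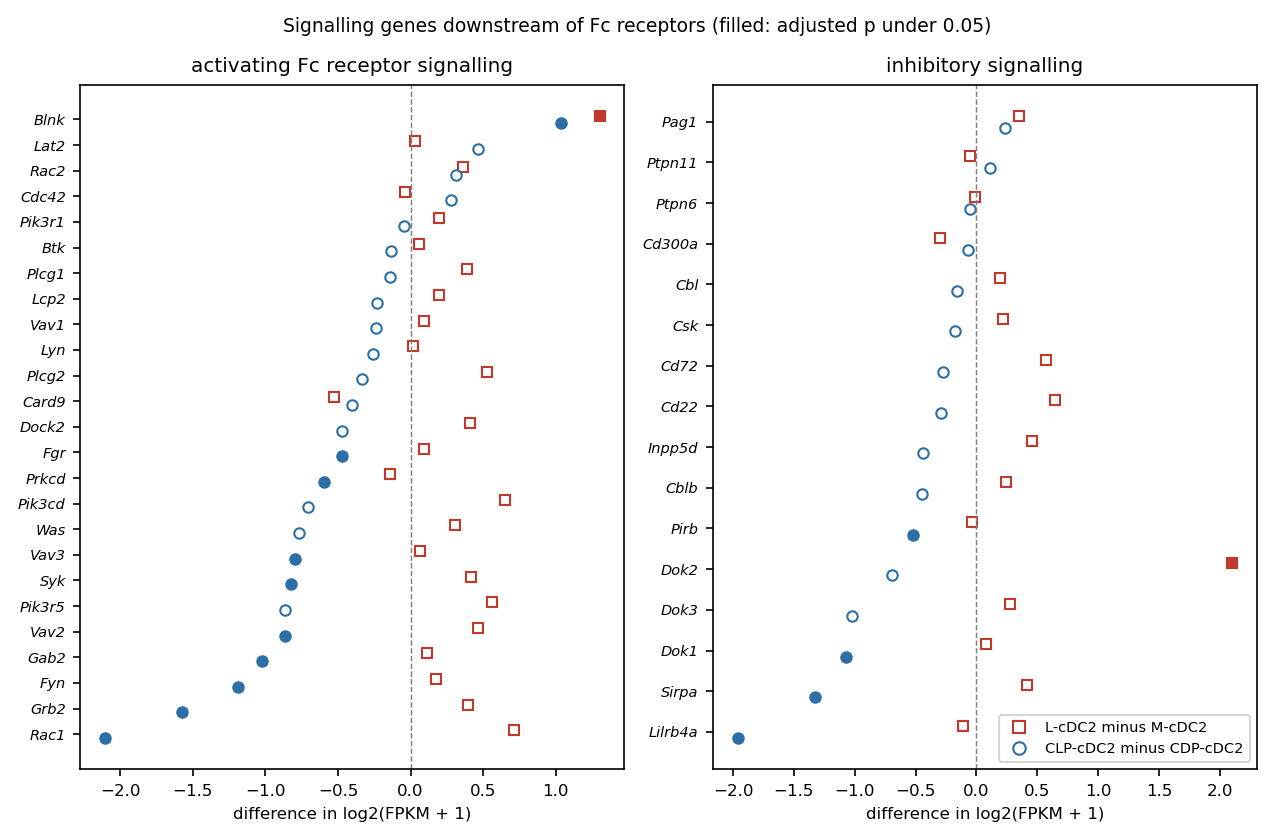
Differences in log2(FPKM + 1) (horizontal axis) of tested genes of activating (left) and inhibitory (right) Fc receptor signalling, with squares for L-cDC2 minus M-cDC2 and circles for CLP-cDC2 minus CDP-cDC2; filled symbols have an adjusted p under 0.05. The filled circles of 9 activating and 4 inhibitory genes lie to the left of 0, and the filled squares, Blnk and Dok2, to the right.

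Among 16 tested genes of inhibitory signalling, 4 were lower in CLP-cDC2 than in CDP-cDC2, where 6.12% of genes were, and none higher (median -0.37). They were Lilrb4a (-1.96, limma adjusted p = 0.00075), Sirpa, the SIRP-alpha receptor that also marks cDC2 (-1.33, 0.0041), Dok1 (-1.07, 0.0043) and Pirb (-0.52, 0.012). The phosphatases that ITIMs recruit did not pass: Inpp5d, which encodes SHIP, differed by -0.44 and Ptpn6, which encodes SHP-1, by -0.05 (limma adjusted p = 0.33 and 0.74). In L-cDC2 against M-cDC2, Dok2 was higher (2.1, limma adjusted p = 0.00018) and no other gene of the list passed (median 0.23). Interferon-stimulated genes were listed because interferons are known to change the levels of some Fc receptors. Of 19 tested, 7 were lower in CLP-cDC2 than in CDP-cDC2 (limma, median -0.50), where 6.12% of genes were. Gbp2 (-1.11), Cxcl9 (-1.04) and Ifit1 (-0.98) were the furthest. None was called in L-cDC2 against M-cDC2 (median -0.01). The part of interferons in the Fc receptor differences was not tested.

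Some genes of macrophages and monocytes moved with the Fc receptors. The 20 markers summed to 715.4 to 761.8 FPKM in L-cDC2, 962.3 to 1052 in M-cDC2, 477 to 640.3 in CLP-cDC2 and 1148 to 1348 in CDP-cDC2, the group order of Fcer1g. Of 15 tested, 3 were lower in L-cDC2 compared with M-cDC2 (Ccr2, Cd14 and Lyz2) and 8 lower in CLP-cDC2 than in CDP-cDC2, none higher in either (medians -0.15 and -1.33). The shares of all genes lower in these comparisons were 0.44% and 6.12%. Most of the gap between the L-cDC2 and M-cDC2 sums came from Lyz2 (means of 106.3 and 274.2 FPKM) and Cd68 (455.9 and 525.8), of which Cd68 did not pass (limma adjusted p = 0.68). Csf1r fell from 30.7 ± 9.77 FPKM in CDP-cDC2 to 7.51 ± 1.16 in CLP-cDC2 (difference -1.86, limma adjusted p = 0.00023) and Adgre1, the F4/80 antigen, by 1.53 (0.00079). Macrophage genes of the list differed in level. Mertk was at 0.187 FPKM or less in every library. C1qb was at 14.9 to 53.6 FPKM in CDP-cDC2 and 0.0217 to 49.8 in CLP-cDC2, and Spic at 3.43 to 4.95 and 0.414 to 2.82. The part of the 20 markers in the Fc receptor differences was not tested.

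Markers of cDC1 moved in opposite directions in the 2 comparisons, whereas those of plasmacytoid dendritic cells did not. Of 10 tested cDC1 markers, 5 were lower in L-cDC2 compared with M-cDC2 and none higher (limma, median -0.77), whereas 6 were higher in CLP-cDC2 than in CDP-cDC2 and none lower (median 0.72). Their sum was 133.1 to 158.4 FPKM in L-cDC2, 250.4 to 271.4 in M-cDC2, 198 to 250.6 in CLP-cDC2 and 114.5 to 179.9 in CDP-cDC2. Plasmacytoid dendritic cell markers summed to 98.8 to 113.8, 76.1 to 90.8, 141.7 to 276.8 and 54.6 to 116.6 FPKM in the same order, with 1 of 5 tested higher in L-cDC2 and 2 of 5 higher in CLP-cDC2. Over all genes tested, 0.44% were lower and 1.29% higher in L-cDC2 than in M-cDC2. In CLP-cDC2 against CDP-cDC2, 7.02% of genes were higher. The part of both lists in the Fc receptor differences was not tested.

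**Figure D5:**
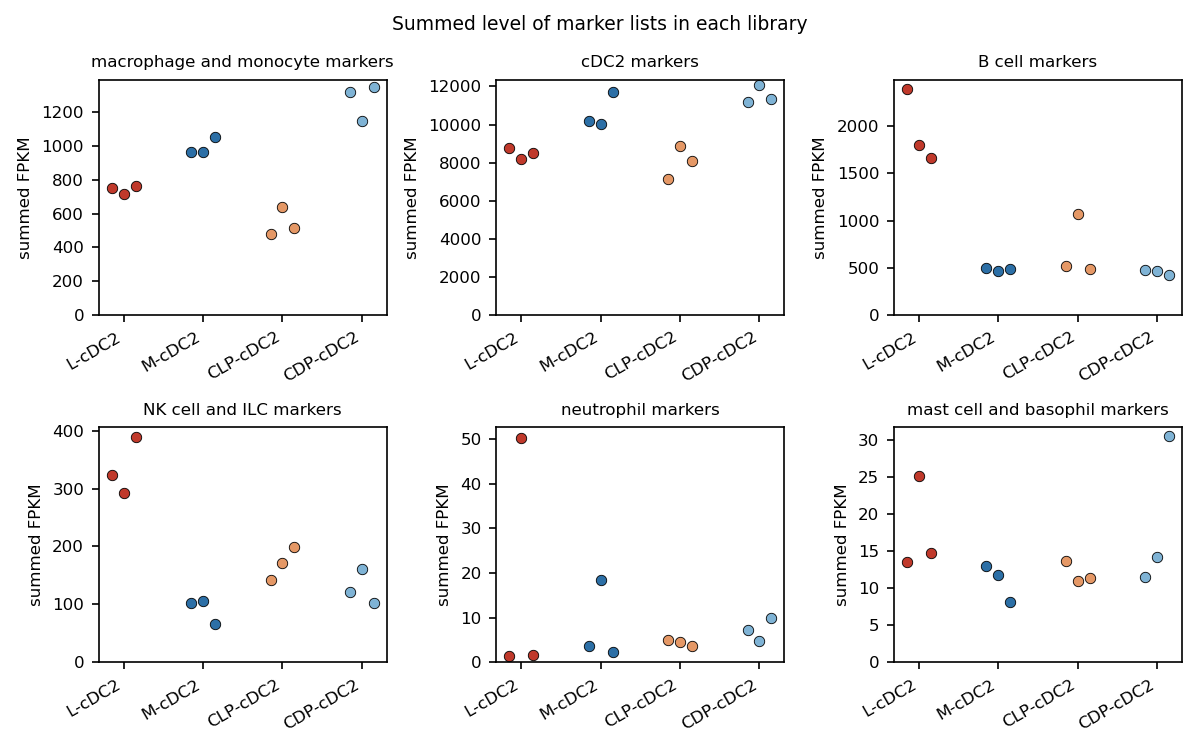
Summed FPKM (vertical axis, from 0, a separate scale for each panel) of 6 marker lists in the 12 libraries by group; points are libraries. Macrophage and monocyte markers are highest in CDP-cDC2 (1148 to 1348), B cell and NK cell markers in L-cDC2, and neutrophil markers stand apart in L-cDC2 replicate 2 at 50.2 FPKM.

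Markers of other cells known for Fc receptors differed in level. Of basophil and mast cell genes, Kit, which progenitors also carry, stood at 7.95 to 30.6 FPKM and made up most of the list's sum of 8.18 to 30.6 FPKM, whereas Mcpt8 was at 0 in all libraries, and Fcer1a and Ms4a2, the other chains of the IgE receptor that uses Fcer1g, did not exceed 0.0755 and 0.00837 FPKM. Retnlg, a neutrophil marker, was at 0 in all libraries and Ly6g at most 0.0532, whereas S100a9 reached 16.9 FPKM in L-cDC2, Ngp 16.2 and S100a8 9.88. In M-cDC2, S100a8 reached 6.61 FPKM. The neutrophil markers summed to 50.2 FPKM in L-cDC2 replicate 2, to 18.5 in M-cDC2 replicate 2 and to at most 9.96 elsewhere. These 2 libraries also had the highest Fcgr3 of their groups (2.58 and 2.55 FPKM). The part of neutrophils in the Fcgr3 values was not tested. NK cell markers summed to 291.9 to 389.7 FPKM in L-cDC2 and to 65.5 to 198.7 in the other groups. Of 11 tested, 9 were higher in L-cDC2 than in M-cDC2, where 1.29% of genes were. Fcgr3, the IgG receptor of NK cells, did not pass in that comparison, and the part of NK cells in its values was not tested.

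Over the 12 libraries, Fcgr2b and Fcgrt had the highest correlation of the member pairs (Pearson r = 0.96 on the log2 scale). With each group's mean removed it was 0.73. Fcer1g followed both (0.88 and 0.85, and 0.73 and 0.75 within groups, where its r with Fcgrt was the highest of all pairs). Fcgr4 and Fcgr2b had r = 0.75 across libraries and -0.43 within groups, where CDP-cDC2 replicate 2 was low in one and high in the other. These values are descriptions of 12 libraries that share 4 group means. Among protein-coding genes with a mean of at least 5 FPKM, the genes most like Fcgr2b were Tmem176a (0.98), Arl5c and Tmem176b (0.97 each), and those most like Fcgrt were Fcgr2b (0.96), Arl5c and Tmem176a (0.94 each). Those most like Fcer1g were Tgfbi and Sirpb1c (0.95 each) and Cxcl16 (0.94), and those most like Fcgr4 were Atp6v0c (0.93), Slamf9 and Ifitm2 (0.92 each). Fcgr3 was most like Clec4n (0.88), C1qb (0.86) and Ctns (0.85), and C1qb kept r = 0.84 within groups. Fcgr1 was most like AB124611 (0.88), Ddt and Mapk13 (0.84 each).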

How the data were processed

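RNA from 12 samples of splenic cDC2 (3 in each of 4 groups, groups and replicate numbers from the labels) was purified on columns, amplified with SMART-Seq HT and tagged with Nextera XT, per the labels' protocols. The authors deposited FPKM values for 55322 genes. Per the submitters' processing notes, the tools were STAR 2.7.9a, featureCounts 2.0.1, Trim Galore 0.6.7, cutadapt 3.7, Trimmomatic 0.39 and DESeq2 1.20.0, in no stated order. The build of the deposited coordinates and the use of strand in counting are not given in the sources used here, and deposited coordinates were not mixed with those of GRCm38. Depth was rebuilt from the steps of the FPKM values: all values were multiples of 0.01 read (tolerance 0.02 steps), and 44.8 to 53.2% of genes above 0 had whole reads (tolerance 0.002 reads). Floors of 3 reads cover counting error only.

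Values were analysed as log2(FPKM + 1), which understates changes of low genes. limma 3.58.1 (R 4.3.3, version 1.17.8 of data.table; lmFit, contrasts.fit, eBayes with trend, two-sided) estimated 4 group means from all 12 libraries (8 residual degrees of freedom) on the 14538 genes with at least 1 FPKM in at least 3 libraries. Adjusted p-values are Benjamini-Hochberg over all genes tested in a comparison, called under 0.05. An exact permutation test of 3 against 3 cannot go below 0.1 and was not used. The members, gene lists and the rule for named genes (all members, up to 3 called genes per list and comparison, genes fixed by name, and the 3 most similar genes per member) were chosen with earlier results of these data known; within the rule, some genes are not reported here. Taking Fcgr2b and Fcgr3 together was chosen after seeing the data. Other alternatives were pseudocounts, filters, scalings (quantile, TMM, voom on rebuilt reads), fits of the groups compared alone, array weights, no trend, a replicate block and each library left out. Promoters were taken from RefSeq and transcripts from GENCODE M21. Deviations of same-numbered libraries correlated at -0.22 to 0.13 in the reporter system and -0.03 to 0.28 in the transfer system. So few pairs cannot exclude pairing.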

Additional observations from a re-analysis of the deposited data

How the results depend on the processing

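Across 25 alternatives, the lower values in CLP-cDC2 than in CDP-cDC2 held for Fcgr4, Fcer1g and Fcgr2b. The number of members called there was 3 with the groups compared alone in the fit, where Fcgr3 and Fcgrt had adjusted p-values of 0.051 and 0.05. In L-cDC2 minus M-cDC2 the number called (2) was 1 without a filter on low values (Fcgr2b lost, adjusted p = 0.078) and 0 to 2 with single libraries left out. With the replicate number as a block it was 0 (Fcgr2b 0.066, Fcgrt 0.068). Same-numbered deviations correlated above 0.1 in 1 of 3 pairs in each system. Of the libraries, 1 of 6 reporter and 3 of 6 transfer ones correlated best with their own number. With 3 pairs in each system, these values cannot tell whether same-numbered libraries were paired, which the labels do not give. The block could not be fitted for CLP-cDC2 minus L-cDC2 or CDP-cDC2 minus M-cDC2.

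For the difference between the lineage comparisons, the number called (0) was 1 with at least 5 FPKM, protein-coding genes only, quantile normalization, array weights, voom and without CDP-cDC2 and M-cDC2 replicate 3 together, each time Fcer1g, and 0 to 1 with single libraries left out. For CLP-cDC2 minus L-cDC2 it was 1 with quantile normalization, array weights and without both replicates 3, each time Fcer1g, and 0 to 1 with single libraries left out. For CDP-cDC2 minus M-cDC2 it was 1 with quantile normalization (Fcer1g), 2 with array weights (Fcer1g and Fcgr2b) and 0 to 1 with single libraries left out. Quantile normalization moved the median of all genes by -0.12 for the difference between the comparisons. With Fcgr3 alone over Fcgr2b, the log2 ratio of CLP-cDC2 minus CDP-cDC2 was -2.41. The causes were not tested.

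Differences near 0 changed sign. For Fcgr4 in CLP-cDC2 minus L-cDC2 the values were -1e-04 (pseudocount 0.1), -0.0038 (TMM), -0.0441 (array weights) and -0.034 (voom), and -0.15 to 0.12 with single libraries left out. For Fcgrt in the difference between the comparisons they were -0.0063 (TMM) and -0.06 to 0.13 with single libraries left out. With single libraries left out, Fcgr2b ran from -0.0018 (without L-cDC2 replicate 2) to 0.1446 in CLP-cDC2 minus L-cDC2, and, lowest without CDP-cDC2 replicate 2, from -0.0768 to 0.3544 in the difference between the comparisons and from -0.0045 to 0.4266 in CDP-cDC2 minus M-cDC2. Depth limits Fcgr1 and, in CLP-cDC2 replicates 1 and 3, Fcgr3, whose fewest reads were 11.5. Fcgr3's CLP-cDC2 minus CDP-cDC2 difference ran from -3.41 (voom) to -0.84 (pseudocount 5).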
